A study of Homo sapiens with 4 samples.

Results

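The osmolyte carriers and NFAT5 targets described here are 10 genes, chosen by Ensembl identifier out of 62655 gene entries in the count table. They are the carriers SLC5A3, SLC6A12 and SLC6A6, the enzyme AKR1B1, the transcription factor NFAT5, the chaperones HSPA1A, HSPA1B and HSPA4L, the kinase SGK1, and MRPS6, which shares its locus with SLC5A3. All 10 passed the filter on low counts. The set was drawn up with earlier results of these libraries in view, in which SLC5A3 and SLC6A12 were called higher, so the differences between groups given for the 10 genes are a description and carry no p-value. The cells were Hep G2, an established human hepatocellular line used as a hepatocyte model. Both groups were plated at 150000 cells per ml, received oleic acid medium 24 h later to make them steatotic, and were transfected with the HiPerFect reagent after 24 h more. The mimic group received an oligonucleotide copy of LysTTT-5'tRF, a tRNA-derived fragment, and the control group a negative control oligonucleotide. RNA was taken 24 h after transfection from 2 samples per group, all of 1 cell line, and the osmolality of the medium is not given in the sources used here. The mimic columns carry a number that no label explains. The rule that defined the set of genes takes them as mimic, and the columns with the control's abbreviation as control. Every direction below rests on that reading.

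NFAT5, also called TonEBP, is a transcription factor of the Rel family that is activated when the surroundings of a cell become hypertonic. It raises transcription of carriers and enzymes that fill the cell with compatible osmolytes, which are small solutes that balance water without disturbing proteins. The main ones are myo-inositol, betaine, taurine and sorbitol. The system is best known from the kidney medulla, and liver cells also take up betaine, taurine and inositol as osmolytes when they shrink.

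The stretches just before the RefSeq starts are shown to describe which of the 10 genes share start sequence. Shared start sequence does not by itself make read counts dependent. RefSeq start windows on GRCh38.p14 were matched by symbol for 7 of the 10 genes, with 12 windows in all; SLC6A12, SLC6A6 and NFAT5 are not among them. Each sequence is the 250 bases before the start, 5′ to 3′ on the gene's own strand. Capitals mark TonE (the NFAT5 element), the heat shock element GAANNTTC, the CCAAT box, the TATAAA box and the GC box GGGCGG, each searched on both strands.
SLC5A3 and MRPS6, chr21:34073328-34073577, plus strand: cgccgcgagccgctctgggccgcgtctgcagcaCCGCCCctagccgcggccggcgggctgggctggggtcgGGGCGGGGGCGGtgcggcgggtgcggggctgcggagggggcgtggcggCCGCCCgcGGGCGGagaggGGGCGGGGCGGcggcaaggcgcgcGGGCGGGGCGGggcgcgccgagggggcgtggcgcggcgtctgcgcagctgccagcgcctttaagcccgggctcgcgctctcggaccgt
HSPA1A, chr6:31815293-31815542, plus strand: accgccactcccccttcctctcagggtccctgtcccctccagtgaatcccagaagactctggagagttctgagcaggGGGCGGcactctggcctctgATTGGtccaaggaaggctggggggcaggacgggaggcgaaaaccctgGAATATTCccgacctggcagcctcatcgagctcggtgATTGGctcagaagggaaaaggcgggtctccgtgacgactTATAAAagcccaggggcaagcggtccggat
HSPA1B, chr6:31827488-31827737, plus strand: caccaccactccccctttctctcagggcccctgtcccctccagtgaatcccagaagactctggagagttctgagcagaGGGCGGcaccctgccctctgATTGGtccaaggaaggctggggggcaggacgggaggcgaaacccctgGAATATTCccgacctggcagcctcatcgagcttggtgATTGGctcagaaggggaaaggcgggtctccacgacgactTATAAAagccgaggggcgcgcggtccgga
HSPA4L, the third of its windows, chr4:127783273-127783522, plus strand: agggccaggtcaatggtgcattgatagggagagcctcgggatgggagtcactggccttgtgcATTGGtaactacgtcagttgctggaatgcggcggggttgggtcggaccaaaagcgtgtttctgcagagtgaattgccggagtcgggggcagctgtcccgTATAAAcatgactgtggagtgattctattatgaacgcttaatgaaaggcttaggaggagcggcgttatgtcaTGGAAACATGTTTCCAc
The window of SLC5A3 was identical to that of MRPS6. It was 84.8% G and C and held GGGCGG at 9 overlapping or separate places, a motif present in 42.6% of all 35116 windows of this length, and none of the other motifs. HSPA1A and HSPA1B were identical in 235 of 251 aligned positions of their windows. Both held GAANNTTC once, reading the same on both strands (5.78% of all windows hold it), a CCAAT box at 2 places (32.0% of all windows) and TATAAA (10.7% of all windows). TonE was found in 1 of the 12 windows, the third of HSPA4L, where overlapping matches on both strands lay just before the start; 4.16% of all windows hold it. These matches describe letters in a window and not bound sites. Sequence farther from the starts was not searched, so a window without TonE does not mean a gene without it.

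Reads assigned to genes ranged from 15430539 to 18961222 in the mimic libraries and from 15970530 to 16793484 in the control libraries. The labels do not say whether replicates came from separate cultures, so the spread between libraries may be technical. Among 14464 genes tested, 40 were higher and 10 lower with the mimic at an adjusted p under 0.05 (0.277% and 0.0691%, together 0.346%), by the quasi-likelihood test of edgeR adjusted by Benjamini and Hochberg's method. Hep G2 identity held in every library, since all 9 hepatocyte and hepatoblast markers were detected, with a summed level of 48556 to 48936 CPM in the mimic libraries and 45853 to 47679 CPM in the controls. CPM here are reads per 1000000 after TMM scaling, and n is 2 libraries in each group. Of the stromal markers 2 of 4 were detected, with DCN and LUM at 0, and they summed to 20.1 to 22.9 CPM in the mimic libraries and 17.4 to 21.4 CPM in the controls. All 3 endothelial markers were detected, summing to 9.54 to 11.5 CPM with the mimic and 9.31 to 9.99 CPM in the control. The leukocyte markers, 2 of 4 detected with PTPRC and CD3E at 0, summed to 0.196 to 0.852 CPM in the mimic libraries and 1.43 to 1.61 CPM in the controls. Both neuron markers summed to 0.160 to 0.196 CPM with the mimic and 0.297 to 0.373 CPM in the control, and of 3 kidney tubule markers 1 was detected, at up to 0.119 CPM in 1 control library, with AQP2 and SLC12A1 at 0. The part of these markers in the results was not tested. Control library 2 stood apart from the rest in the share of reads aligning to several places, 10.4% against 8.30% in control library 1 and 8.35% and 8.47% in mimic libraries 1 and 2. The part of that in the results below was not tested. In a bulk sample, fewer cells expressing a gene and less RNA per cell cannot be told apart.

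SLC5A3, the sodium-coupled myo-inositol transporter, was the most abundant carrier of the group per kb of exon and was higher in both mimic libraries. It had 311 and 332 CPM in mimic libraries 1 and 2, against 247 and 198 CPM in control libraries 1 and 2. The groups did not overlap, and the gap between the lowest mimic and the highest control library was wider than the gap between the controls. The means were 321 ± 14.9 CPM in mimic libraries and 223 ± 34.6 CPM in control libraries (SD, n = 2 each). On the log2 scale the fold change was 0.53 (SE 0.07, 95% interval 0.39 to 0.67). Counting error did not cover the difference between the 2 controls, whose exact Poisson 95% intervals ran from 240 to 255 CPM and from 192 to 205 CPM. Such intervals cover counting error only. Leaving out 1 library at a time moved the log2 fold change between 0.38, without control library 2, and 0.70, without control library 1.

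MRPS6 encodes a protein of the small subunit of the mitochondrial ribosome, and SLC5A3 lies inside it. In GENCODE 29 on GRCh38, MRPS6 (ENSG00000243927) spans chr21:34073224-34143034 and SLC5A3 (ENSG00000198743) spans chr21:34073570-34106262, both on the plus strand. The whole coding sequence of SLC5A3, 2154 bases, lies in 1 exon and within an intron of MRPS6, although the rest of that exon reaches past 2 short exons of MRPS6. The 375 coding bases of MRPS6 are spread over 3 exons. The genes share 273 exon bases, in the first exon of SLC5A3 and in 2 short stretches of its last, which is 2.36% of the exon sequence of SLC5A3 and 6.35% of that of MRPS6. Reads there cannot be told apart by gene, and both genes also share exon sequence with a non-coding gene.

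**Figure D1:**
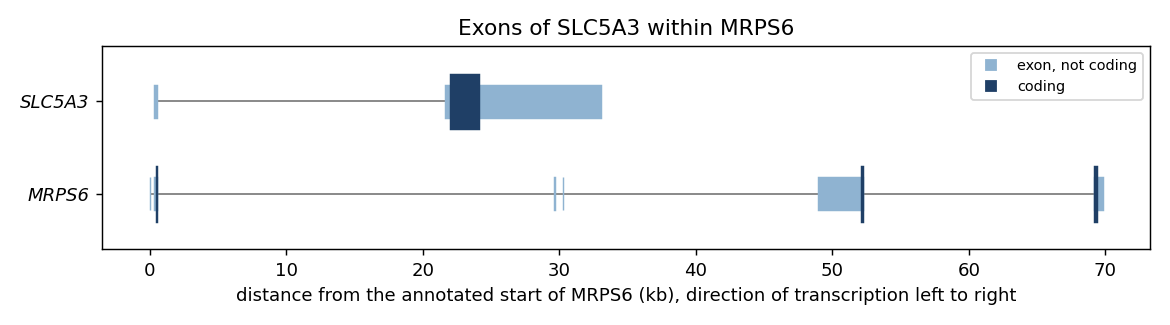
Exons of SLC5A3 and MRPS6 along their locus, as distance in kb from the annotated start of MRPS6, with coding parts dark and the rest of the exons light. Both genes begin with nearby first exons, and the coding sequence of SLC5A3 falls in an intron of MRPS6.

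MRPS6 ranked the libraries as SLC5A3 did, except that control library 1 and mimic library 1 changed places. MRPS6 had 25.6 and 29.7 CPM in mimic libraries 1 and 2, against 27.6 and 19.1 CPM in control libraries 1 and 2. Control library 1 lay above mimic library 1, so the groups overlapped, and control library 2 was the lowest. The exact Poisson 95% intervals of control library 1 (25.1 to 30.2 CPM) and mimic library 1 (23.1 to 28.3 CPM) overlapped. Its log2 fold change was 0.25 with a 95% interval from -0.02 to 0.51, and it was 0.01 without control library 2 and 0.54 without control library 1. SLC5A3 had 12.1 and 11.2 counts per count of MRPS6 in mimic libraries 1 and 2, against 8.96 and 10.4 in control libraries 1 and 2. Both mimic ratios were thus above both control ratios. SLC5A3 was known to be called higher when the set was drawn up, so this order was favoured in advance. Nothing is read from the order of the ratios. Mimic library 2 at 11.2 and control library 2 at 10.4 lay closest between the groups, and counting error of the ratios was not tested. Per kb of exon, SLC5A3 stood at 27.8 ± 1.29 CPM in mimic libraries and 19.2 ± 2.99 CPM in control libraries, and MRPS6 at 6.43 ± 0.675 CPM in mimic libraries and 5.43 ± 1.39 CPM in control libraries (SD, n = 2 each).

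SLC6A12 (BGT1), the carrier of betaine and of the transmitter GABA, had the largest fold change of the 10 genes and the lowest level. It had 16.7 and 9.37 CPM in mimic libraries 1 and 2, from 255 and 176 reads, against 6.30 and 3.48 CPM in control libraries 1 and 2, from 106 and 56 reads. The groups did not overlap, yet mimic library 1 was well above mimic library 2 and control library 1 well above control library 2. Counting intervals did not touch within either group, at 14.7 to 18.8 and 8.04 to 10.9 CPM in mimic libraries and 5.16 to 7.62 and 2.63 to 4.52 CPM in control libraries. Its log2 fold change reached 1.37 (SE 0.25, 95% interval 0.85 to 1.89). It ranged from 0.93, without mimic library 1, to 1.87, without control library 1. The gene (ENSG00000111181, chr12:190077-214570, minus strand) has 1.12% of its exon sequence opposite an antisense gene.

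The taurine carrier and aldose reductase differed less. SLC6A6, the taurine transporter of the same family as SLC6A12, had 111 and 102 CPM in mimic libraries 1 and 2, against 104 and 105 CPM in control libraries 1 and 2. The groups overlapped, with a log2 fold change of 0.03 and a 95% interval from -0.10 to 0.16, so a change of more than 1.12-fold upwards lay outside the interval. AKR1B1, aldose reductase, which makes sorbitol from glucose, had 95.5 and 90.4 CPM in mimic libraries 1 and 2, against 80.3 and 79.6 CPM in control libraries 1 and 2. Its groups did not overlap and both controls were nearly equal. The log2 fold change of AKR1B1 was 0.22, with a 95% interval from 0.08 to 0.35, and lay between 0.18 and 0.26 with each library left out. SLC6A6 (ENSG00000131389) lies at chr3:14402576-14489349 on the plus strand and AKR1B1 (ENSG00000085662) at chr7:134442350-134459284 on the minus strand.

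NFAT5 mRNA was abundant and nearly level. It had 521 and 523 CPM in mimic libraries 1 and 2, against 505 and 467 CPM in control libraries 1 and 2. The mimic libraries were both above the controls, with the larger gap between the controls themselves. The log2 fold change was 0.10, with a 95% interval from 0.01 to 0.20, and it lay between 0.05 and 0.16 with each library left out. NFAT5 is also regulated after transcription, by transport into the nucleus and by phosphorylation, which counts of mRNA do not measure. Of its exon sequence (ENSG00000102908, chr16:69565094-69704666, plus strand), 9.68% is shared with a non-coding gene on the same strand.

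The inducible HSP70 genes HSPA1A and HSPA1B varied more within groups than between them. HSPA1A had 83.9 and 50.1 CPM in mimic libraries 1 and 2, against 60.8 and 46.9 CPM in control libraries 1 and 2. HSPA1B had 124 and 75.1 CPM in mimic libraries 1 and 2, against 91.4 and 58.4 CPM in control libraries 1 and 2. In both genes mimic library 1 was highest, control library 1 lay above mimic library 2, and control library 2 was lowest. The log2 fold changes were 0.29 for HSPA1A, with a 95% interval from -0.003 to 0.59, and 0.39 for HSPA1B, with an interval from 0.07 to 0.71. Without mimic library 1 they were -0.11 and -0.0019, and without mimic library 2 they were 0.64 and 0.72.

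HSPA1A and HSPA1B are near copies of each other, so reads that fit both cannot be assigned to 1 of them. How far their counts depend on each other was not tested. Of the 50-base words in their GENCODE 29 transcripts, 71.3% of those of HSPA1A and 73.5% of those of HSPA1B also occur in transcripts of another gene, chiefly each other. Reads that align to several places were tallied apart from the gene counts, so the levels of both leave such reads out. HSPA1B had 1.48, 1.50 and 1.50 counts per count of HSPA1A in mimic libraries 1 and 2 and control library 1, and 1.24 in control library 2. The library with the lowest ratio is the one with the most reads aligning to several places, and the part of this in the ratio was not tested. HSPA1A (ENSG00000204389) lies at chr6:31815464-31817946 and HSPA1B (ENSG00000204388) at chr6:31827735-31830255, both of 1 exon on the plus strand. A non-coding transcript on the same strand shares 36.5% of the exon of HSPA1B.

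HSPA4L, a relative of HSP110 that is induced by hypertonic stress in mouse kidney cells, and SGK1, a kinase whose gene responds to glucocorticoids and to cell volume, showed overlapping groups. HSPA4L had 43.1 and 37.1 CPM in mimic libraries 1 and 2, against 37.2 and 40.2 CPM in control libraries 1 and 2. Control library 2 lay above mimic library 2. Its log2 fold change was 0.04 (95% interval -0.14 to 0.23) and turned to -0.06 without mimic library 1 and to -0.01 without control library 1. SGK1 had 56.8 and 47.2 CPM in mimic libraries 1 and 2, against 49.8 and 42.0 CPM in control libraries 1 and 2. In each group library 1 was above library 2, by 0.27 with the mimic and 0.24 in the control in log2 CPM, and the groups overlapped. The log2 fold change of SGK1 was 0.17, with a 95% interval from -0.02 to 0.36, and ran from 0.035 without mimic library 1 to 0.30 without mimic library 2. HSPA4L (ENSG00000164070) is at chr4:127781821-127840733 on the plus strand, with 6.19% of its exon sequence opposite other genes, and SGK1 (ENSG00000118515) at chr6:134169246-134318112 on the minus strand.

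**Figure D2:**
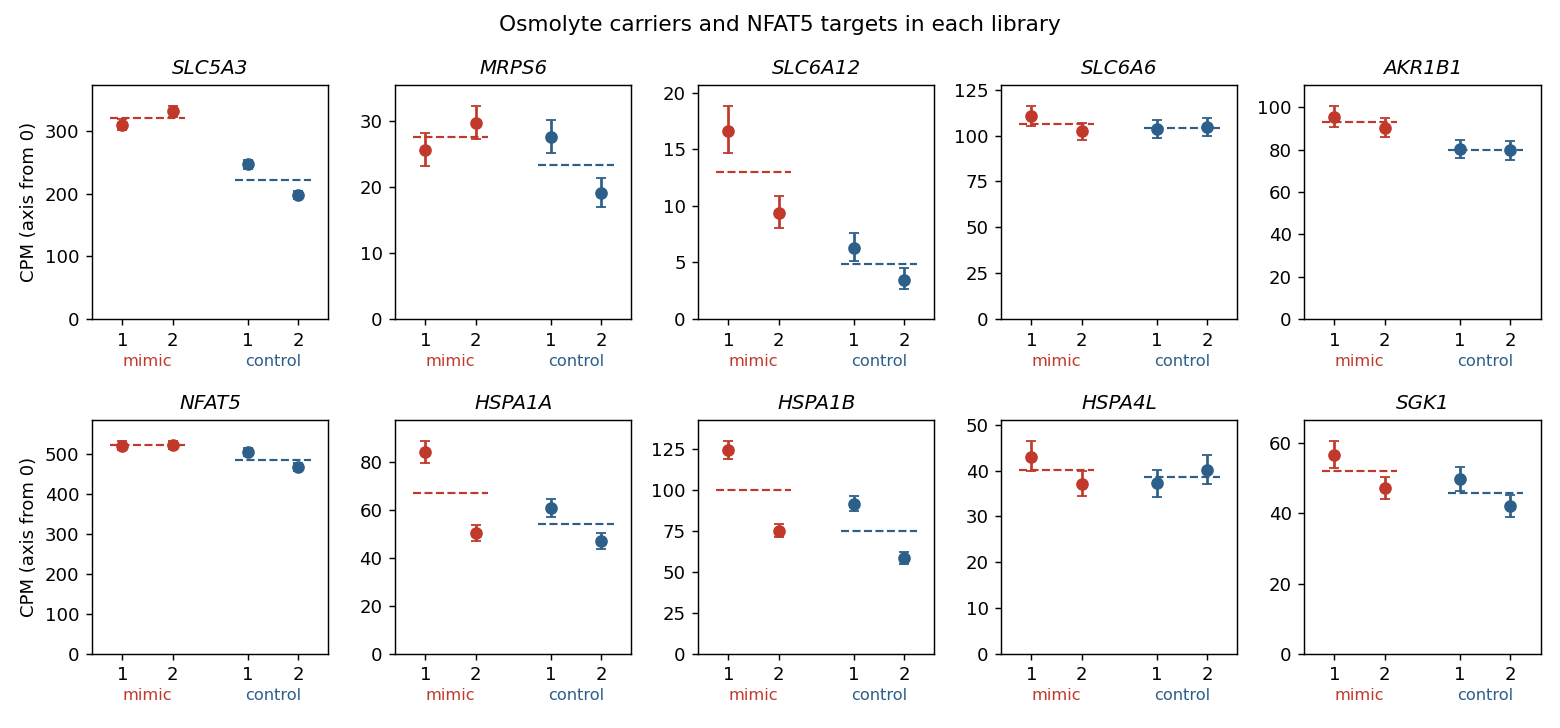
Level of each of the 10 genes in CPM, on axes from 0, in mimic libraries (red, left) and control libraries (blue, right). Points are libraries with exact Poisson 95% intervals of counting error and dashed lines are group means; the groups do not overlap for SLC5A3, SLC6A12, AKR1B1 and NFAT5.

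Across the 10 genes, all log2 fold changes were above 0, with a median of 0.23, beside 50.4% above 0 and a median of 0.00 over all genes tested. Without mimic library 1, 4 of the 10 were below 0 (SLC6A6, HSPA1A, HSPA1B and HSPA4L), and without control library 1 HSPA4L was. HSPA1A and HSPA1B, near copies, both count in this and the later tallies. Both mimic libraries were above both controls in 4 of the 10, which holds for 19.8% of all genes tested. At an adjusted p under 0.05, 2 of the 10 were called higher, SLC5A3 and SLC6A12, beside 0.277% of all genes; both were known when the set was drawn up, so nothing is read from that count. SLC6A12 was not called without mimic library 1 and had no adjusted p in DESeq2. SLC5A3 was not called by DESeq2, at the same log2 fold change of 0.53. Per kb of exon the order with the mimic was HSPA1B at 39.5 ± 13.8 CPM per kb, NFAT5 at 31.8 ± 0.0709, SLC5A3 at 27.8, HSPA1A at 27.0 ± 9.62 and AKR1B1 at 25.4 ± 0.984. SLC6A6 followed at 12.9 ± 0.709 CPM per kb, MRPS6 at 6.43, SGK1 at 5.20 ± 0.679, HSPA4L at 3.45 ± 0.365 and SLC6A12 at 2.46 ± 0.976 (SD, n = 2 each). In this order HSPA1B and NFAT5, SLC5A3 and HSPA1A, HSPA1A and AKR1B1, MRPS6 and SGK1, and HSPA4L and SLC6A12 differed by less than the sum of their SDs, and the other neighbours by more. The lengths take in every annotated exon, used or not. Reads aligning to several places are left out, so the levels of HSPA1A and HSPA1B per kb may be too low. Their places in the order are therefore uncertain. In the control SLC5A3, at 19.2 CPM per kb, came after AKR1B1 at 21.8 ± 0.128 and HSPA1A at 21.7 ± 3.94 CPM per kb, by less than its own SD of 2.99.

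Libraries of 1 group differed from each other in these genes. Library 1 was above library 2 in both groups in 5 of the 10, beside 26.5% of all genes tested. In SLC5A3, NFAT5, MRPS6, SLC6A6 and HSPA4L the direction differed between the groups. Mimic library 1 was above mimic library 2 in 7 of the 10 genes (49.7% of all genes tested), and control library 1 above control library 2 in 8 (50.2%). Mimic library 1 was the highest of the 4 libraries in 7 of the 10, beside 26.8% of all genes, and control library 2 the lowest in 8, beside 29.0%. All 10 had higher estimates with the mimic, in a set drawn up with earlier results known. A mimic library highest and a control library lowest were thus favoured in advance, so nothing is read from these shares. SLC6A12 differed by 0.82 in log2 CPM between the mimic libraries, a size reached by 4.63% of all genes tested. Between the controls it differed by 0.84, a size reached by 4.89% of genes. HSPA1B differed by 0.72 between the mimic libraries and by 0.65 between the controls (6.15% and 7.94% of genes). For MRPS6 library 1 minus library 2 was -0.21 with the mimic and 0.53 in the control, and for SLC5A3 it was -0.09 with the mimic and 0.32 in the control, so in both genes mimic library 2 was the higher mimic library. AKR1B1 and SLC6A6 differed by at most 0.11 within either group.

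**Figure D3:**
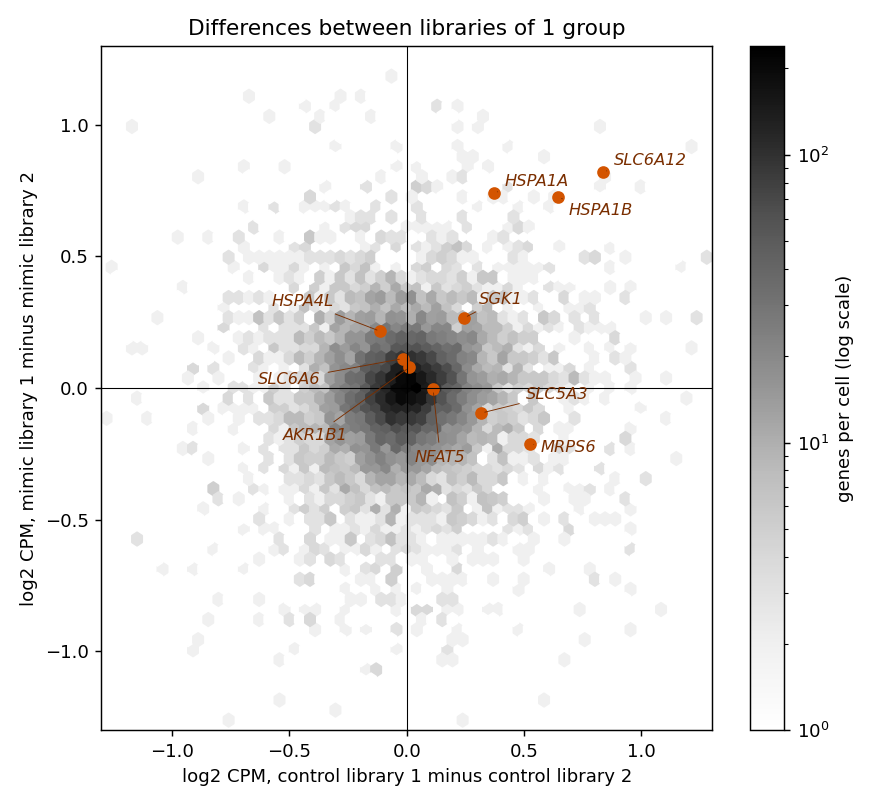
Difference between the 2 mimic libraries (vertical) and the 2 control libraries (horizontal) in log2 CPM, library 1 minus library 2, with all genes tested in grey, darker where more genes fall, and the 10 genes in orange. SLC6A12, HSPA1A and HSPA1B lie at the upper right, where library 1 exceeded library 2 in both groups, and AKR1B1 and SLC6A6 lie near the centre.

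Wider lists, from textbook knowledge, gene family and position, gave the rest of the pathway. None of the 10 genes above is in them. The lists were chosen with earlier results of these data known, so nothing is read from the shares called in them. Of 193 distinct genes tested in 9 lists, 3 rose and 1 fell, together 2.07% beside 0.346% of all genes (edgeR, quasi-likelihood, Benjamini-Hochberg over all 14464 genes). At an unadjusted p under 0.05 were 9.43% of all genes. For osmolyte synthesis, breakdown and transport, 30 genes were tested and none passed, with 6 at an unadjusted p under 0.05 and a median log2 fold change of 0.02. Aldo-keto reductase AKR1B10, a relative of AKR1B1, had 159 and 134 CPM in mimic libraries 1 and 2, against 125 and 111 CPM in control libraries 1 and 2 (log2 fold change 0.30, adjusted p = 0.0688, edgeR). Choline dehydrogenase CHDH, which makes the precursor of betaine, had 95.9 and 101 CPM with the mimic, against 116 and 118 CPM in the control (log2 fold change -0.25, adjusted p = 0.0739, edgeR). The creatine carrier SLC6A8 averaged 295 ± 52.1 CPM in mimic libraries and 361 ± 44.0 CPM in control libraries (SD, n = 2 each), without passing. CHDH passed with library totals (adjusted p = 0.0447), with a filter at 10 CPM (0.0473) and without control library 1 (0.0152), all with edgeR. AKR1B10 and SLC6A8 passed without mimic library 2 and without control library 1.

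Of other genes reported to respond to NFAT5 or hypertonicity, 16 of 30 passed the filter, 1 rose and 1 fell, with a median log2 fold change of 0.07. ATP1B1, the beta subunit of the sodium pump, rose. It had 398 and 411 CPM in mimic libraries 1 and 2, against 355 and 346 CPM in control libraries 1 and 2. The libraries of each group were close together and the groups apart, with a log2 fold change of 0.21 (SE 0.05; adjusted p = 0.0463, edgeR, Benjamini-Hochberg). The call was near the threshold. It held in DESeq2 (adjusted p = 0.0123) and limma voom (0.0336), and was lost with RLE scaling (adjusted p = 0.0503), library totals (0.0732), upper-quartile scaling (0.0721) and without mimic library 1, mimic library 2 or control library 2 (0.139, 0.226 and 0.157; all edgeR), where the log2 fold change was between 0.18 and 0.23. SLC2A1, the glucose carrier GLUT1, fell, with 1183 and 1244 CPM in mimic libraries 1 and 2, against 1332 and 1525 CPM in control libraries 1 and 2. The log2 fold change was -0.23 (adjusted p = 0.0319, edgeR). It was -0.24 in DESeq2 (adjusted p = 0.406), -0.20 without mimic library 1 (0.119) and -0.13 without control library 2 (0.366).

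None of 30 kinases, helicases, transport factors and other reported partners of NFAT5 passed (5 at an unadjusted p under 0.05 with edgeR; median log2 fold change 0.00). Nearest to the threshold were the apoptosis antagonizing factor AATF at a log2 fold change of 0.20, the nuclear export receptor XPO1 at 0.12 and the nucleoporin NUP88 at 0.22. None of 31 channels, carriers and kinases of cell volume regulation passed either (2 at an unadjusted p under 0.05; median 0.03), with the anion exchanger SLC4A2 at 0.13, the water channel AQP3 at -0.21 and the volume-regulated anion channel subunit LRRC8D at 0.15. In that volume list control library 2 was the lowest library in 21 of 31 genes (67.7%, beside 29.0% of all genes tested). As 22 of the 31 log2 fold changes were above 0, a control library lowest was favoured in advance. Averaged over the list, log2 CPM departed from the mean of the 4 libraries by 0.00 and 0.02 in mimic libraries 1 and 2, against 0.05 and -0.08 in control libraries 1 and 2, so control library 2 stood apart from all 3 others.

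Among heat shock proteins and other HSF1 targets, as in the HSP70 genes, mimic library 1 and control library 2 lay at the ends. Of 31 tested, 1 rose and none fell, 24 had a log2 fold change above 0, and the median was 0.07, beside 0.277% called higher, 50.4% above 0 and a median of 0.00 over all genes. HSPH1, the HSP110 chaperone that recharges HSP70 and a relative of HSPA4L, rose. It had 468 and 390 CPM in mimic libraries 1 and 2, against 368 and 286 CPM in control libraries 1 and 2. The groups did not overlap, but each had a higher library 1, and the log2 fold change was 0.39 (SE 0.08; adjusted p = 0.0302, edgeR, Benjamini-Hochberg). Without mimic library 1 it was 0.25 (adjusted p = 0.0575), and in DESeq2 it was 0.39 (adjusted p = 0.709). It was called at 0.22 without control library 2 (adjusted p = 0.0350, edgeR) and at 0.58 without control library 1. The co-chaperone DNAJA1 was at 289 ± 11.9 CPM in mimic libraries and 252 ± 18.3 CPM in control libraries, and the small heat shock protein HSPB8 at 4.35 ± 0.129 CPM in mimic libraries and 2.60 ± 0.521 CPM in control libraries (SD, n = 2 each), without passing. Mimic library 1 was the highest of the 4 in 20 of the 31 genes (64.5%, beside 26.8% of all genes), and control library 2 the lowest in 17 (54.8%, beside 29.0%). As 24 of the 31 log2 fold changes were above 0, a mimic library highest and a control library lowest were favoured in advance. For these genes the same average departure was 0.08 and 0.01 in mimic libraries 1 and 2, against -0.01 and -0.08 in control libraries 1 and 2.

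**Figure D4:**
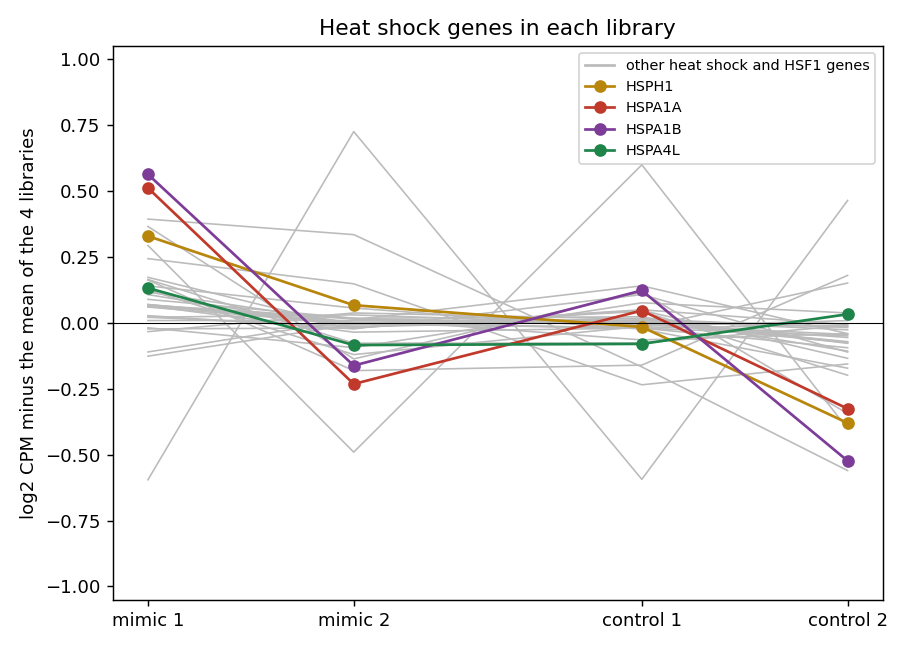
Log2 CPM of each heat shock gene minus its mean over the 4 libraries, for the 31 tested list genes (grey, with HSPH1 in gold) and for HSPA1A, HSPA1B and HSPA4L. HSPA1A and HSPA1B are highest in mimic library 1 and lowest in control library 2, with control library 1 above mimic library 2, while HSPA4L stays near 0.

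Genes around SGK1 were not called. Of 19 tested SGK relatives, substrates and glucocorticoid-responsive genes none passed, with 4 at an unadjusted p under 0.05 (edgeR) and a median log2 fold change of -0.02. TSC22D3, the glucocorticoid-induced leucine zipper GILZ, had only 25 and 24 reads in mimic libraries 1 and 2, against 7 and 6 reads in control libraries 1 and 2. Its log2 fold change was 1.84 with a wide 95% interval from 0.72 to 2.97 (adjusted p = 0.211, edgeR, Benjamini-Hochberg). The phosphatase DUSP1, another early responder to glucocorticoids and stress, had 76.5 and 65.4 CPM in mimic libraries 1 and 2, against 69.2 and 52.4 CPM in control libraries 1 and 2, so its groups overlapped. NDRG1, a substrate of SGK1, was at 502 ± 47.4 CPM in mimic libraries and 542 ± 9.27 CPM in control libraries (SD, n = 2 each).

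Relatives of the carriers and of MRPS6 had medians close to that of all genes. Of the SLC5 and SLC6 families 10 further genes were tested, 1 rose (0.277% of all genes did) and none fell, and the median log2 fold change was -0.02. The riser was SLC6A14, an amino acid carrier, with 75.4 and 66.8 CPM in mimic libraries 1 and 2, against 52.4 and 36.9 CPM in control libraries 1 and 2 (log2 fold change 0.66, adjusted p = 0.00279, edgeR, Benjamini-Hochberg). It stayed called when any 1 library was omitted, at 0.44 without control library 2 and 0.94 without control library 1. SLC5A9, a sodium-coupled sugar carrier, was at 20.9 ± 0.0309 CPM in mimic libraries and 26.0 ± 1.35 CPM in control libraries (SD, n = 2 each) and did not pass (adjusted p = 0.285, edgeR, Benjamini-Hochberg). None of 27 other MRPS genes of the small mitochondrial ribosomal subunit passed (1 at an unadjusted p under 0.05; median log2 fold change -0.01). MRPS12, MRPS18B and MRPS9, the 3 with the smallest p, had log2 fold changes of -0.24, -0.13 and 0.16. They do not show where MRPS6 ranks among these genes. MRPS6 was at 0.25, and at 0.01 without control library 2.

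**Figure D5:**
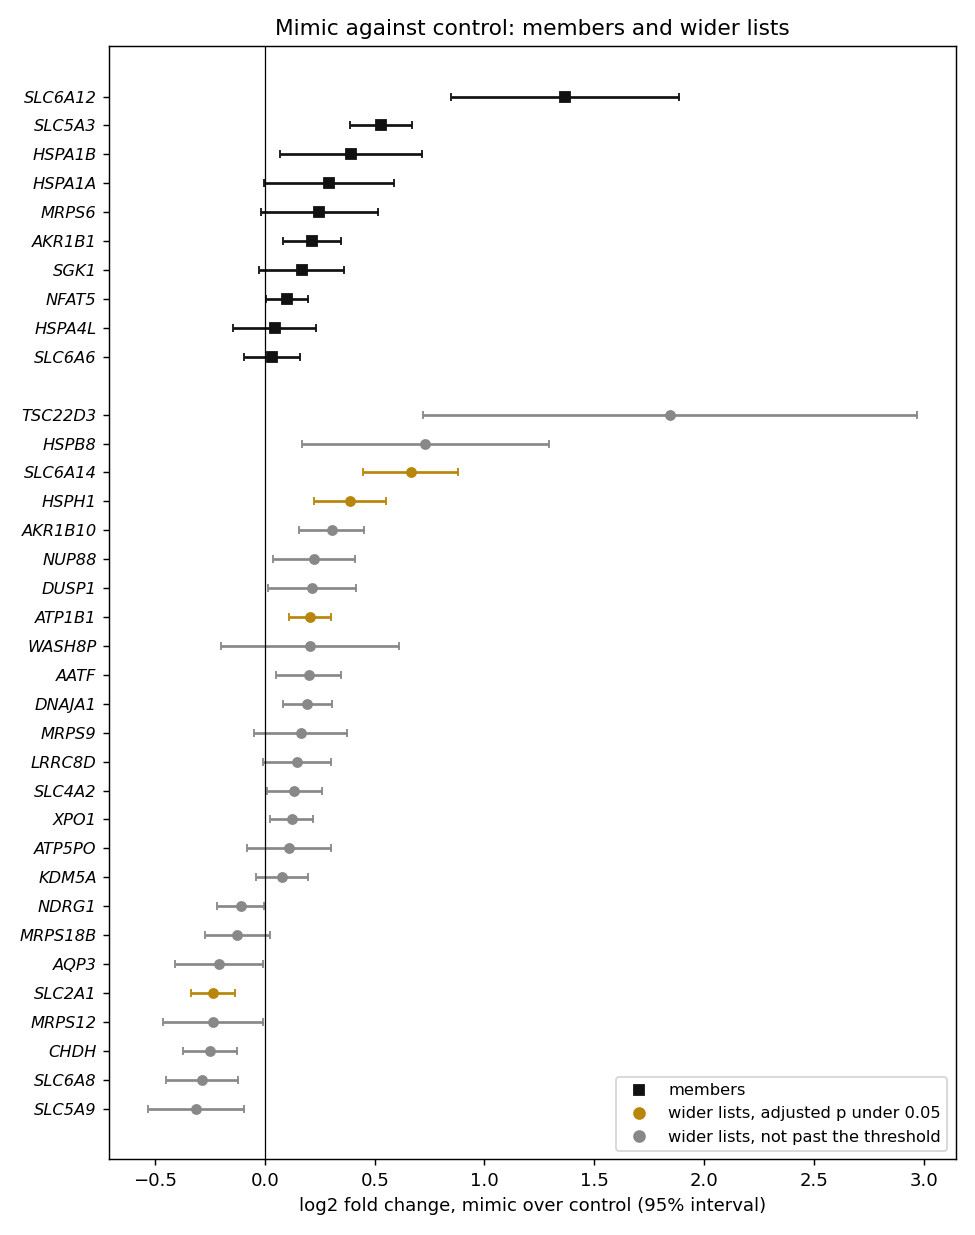
Log2 fold change of mimic over control with 95% intervals from edgeR, for the 10 genes (black squares, a description) and for the named genes of the wider lists (gold where the adjusted p was under 0.05, grey otherwise). SLC6A12 and SLC5A3 lie farthest to the right among the 10, and SLC6A6 and HSPA4L lie nearest to 0.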

How the data were processed

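Poly(A)-selected stranded libraries of 4 samples were sequenced by the authors, from 500 ng of total RNA with integrity numbers above 9.5, per the labels' protocols. The deposited values are raw counts per Ensembl gene, with no normalization. Per the submitters' processing notes the tools were STAR, HTSeq, Bowtie2 and FastQC and the build GRCh38.p14. Versions, annotation and strand setting: not given in the sources used here. The 5 HTSeq summary entries, 23.1% to 24.1% of each column's total, were left out of every library size and test. Columns were assigned to groups by their name, the prefix of the control being the study's abbreviation; library numbers 1 and 2 come from the columns and cannot be tied to the samples' own numbers.

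The counts went into edgeR 4.0.16 (R 4.3.3): filterByExpr (minimum count 10, minimum total 15), TMM scaling, glmQLFit with legacy = FALSE, glmQLFTest, Benjamini-Hochberg over 14464 genes, threshold 0.05. The common biological coefficient of variation was 5.12%, and the procedure was tested on simulated data. Symbols came from a table of gene identifiers, lengths and overlaps from GENCODE 29, sequences from RefSeq. Levels per kb divide CPM by the union of annotated exons. The members and lists were chosen with earlier results of these data known. Named were all members, every called gene and the 3 smallest p per list, and for SLC5A3 and SLC6A12 the 5 genes of at least 5 CPM with the nearest pattern. An item named by this rule is not reported here. Alternatives were RLE scaling in edgeR, library totals, upper-quartile scaling, no filter, a filter at a mean of 10 CPM, and legacy = TRUE. Others were DESeq2 1.42.0, limma 3.58.1 voom, leaving out each library, and a block by column number.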

Additional observations from a re-analysis of the deposited data

How the results depend on the processing

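Without a filter on low counts edgeR called 0 genes, 0 members and 0 list genes, with 1514, 3 and 25 at an unadjusted p under 0.05, whereas limma voom with the filter called 50, 2 and 4. DESeq2 called 37 genes in all, 0 members (4 at an unadjusted p under 0.05; 5 of the 10 had an adjusted p) and 2 list genes. A filter at a mean of 10 CPM removed SLC6A12 and left 1 member called. Leaving out 1 library gave 20 to 424 genes, 1 to 5 members and 1 to 18 list genes: the fewest in each case without mimic library 1 and the most without control library 1. SLC5A3 kept its call in all 4 of these fits; SLC6A12 lost it without mimic library 1. HSPA1A and HSPA1B were called without mimic library 2, and with MRPS6 also without control library 1. The log2 fold change then ranged from -0.026 to 0.087 for SLC6A6, -0.11 to 0.64 for HSPA1A, -0.0019 to 0.75 for HSPA1B and -0.063 to 0.15 for HSPA4L, negative without mimic library 1 in all 4 and, for HSPA4L (-0.01), without control library 1. For WASH8P it ranged from -0.14, without control library 2, to 0.69. The cause was not tested. A replicate block by column number called 306 genes, 5 members (AKR1B1, HSPA1A and HSPA1B with both carriers) and 14 list genes; the sample titles share no numbers between groups and same-numbered columns deviated together with r = 0.0234 across genes, so the numbers are not taken as a pairing. Scaling by RLE, library totals or upper quartile and legacy = TRUE kept 2 members called. The 56 to 255 reads of SLC6A12 limit its precision.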

Other observations

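Genes close to the SLC5A3 and SLC6A12 loci were looked at next. Of 25 annotated genes within 250 kb, 6 passed the filter and none passed the test (edgeR; none at an unadjusted p under 0.05 either), with a median log2 fold change of 0.09. KDM5A, a histone demethylase gene, had 118 and 120 CPM in mimic libraries 1 and 2, against 113 and 113 CPM in control libraries 1 and 2. ATP5PO, a subunit of the ATP synthase, averaged 34.1 ± 2.35 CPM in mimic libraries and 31.7 ± 1.39 CPM in control libraries (SD, n = 2 each). The pseudogene WASH8P, one of several near copies whose reads may be split, averaged 10.6 ± 0.661 CPM in mimic libraries and 9.15 ± 3.63 CPM in control libraries. Control library 2 was the lowest in 5 of the 6, beside 29.0% of all genes tested. As 4 of the 6 log2 fold changes were above 0, a control library lowest was favoured in advance.

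Among genes of at least 5 CPM, those whose levels over the 4 libraries were most like those of SLC5A3, by root mean square distance of centred log2 CPM, were CNNM1 (0.04), ODAM (0.05), ZNF628 (0.05), GFI1 (0.06) and PRIMA1 (0.06), with log2 fold changes of 0.52, 0.53, 0.43, 0.48 and 0.45. Fold changes near that of SLC5A3 follow from choosing genes by likeness. For SLC6A12 the nearest were FUT3 (0.35), HID1 (0.37), FOS (0.41), SLC6A14 (0.44) and PIK3AP1 (0.46), all farther away than those of SLC5A3. The distance is not scaled to a gene's own spread. Around its own mean SLC6A12 ran from -1.11 to 1.11 in log2 CPM and SLC5A3 from -0.43 to 0.32, so the distances of the 2 genes are not comparable. With 4 libraries such a likeness rests on few values and describes these libraries only. FOS, an immediate early transcription factor, had 24.6 and 12.9 CPM in mimic libraries 1 and 2, against 17.7 and 7.58 CPM in control libraries 1 and 2, the same ranking of libraries as HSPA1A and HSPA1B.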
